A study of Mus musculus with 8 samples.

Results

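The liver makes most of the proteins of complement, blood clotting and fibrinolysis, together with the serpins that hold their proteases in check and carriers such as albumin. Liver mRNA for 51 such genes was compared between WT mice and N-LKO mice, which lack NgBR in hepatocytes. The 51 genes were taken by symbol from the 19642 genes of the deposited count table, all 51 were found, and 49 passed the filter on low counts. Most of these mRNAs were abundant and were at similar levels in the 2 genotypes, with no gene passing edgeR's test. Of the 49, C9, the pore-forming protein of terminal complement, and Klkb1, the plasma prekallikrein of the contact system, had the largest fitted differences.

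RNA from whole liver was sequenced in 4 WT and 4 N-LKO male mice on the C57BL6 background, 1 library per mouse, all on CD, a chow diet. N-LKO mice carry albumin-Cre and a loxP-flanked Nus1 allele on both chromosomes, so deletion is driven by the albumin promoter, active in hepatocytes. The paper names endothelial, stellate and Kupffer cells as liver cells that express NgBR. Bulk RNA does not show which cells kept it. The sample titles give 8 weeks of CD, as does the paper's legend for mRNA levels in chow-fed livers, while the treatment entries give 16 weeks. The age of the mice is not given in the labels. In bulk tissue, fewer cells of a type and less RNA per cell cannot be told apart.

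NgBR, encoded by Nus1, and Dhdds form the cis-prenyltransferase that makes dolichol phosphate, the lipid on which the sugar chain for N-glycosylation is built in the endoplasmic reticulum. Most proteins encoded by the 51 genes are secreted glycoproteins, while albumin and C8 gamma are known examples without N-linked sugar. Complement is a cascade of proteases started by antibody (classical pathway), by sugar-binding lectins (lectin pathway) or spontaneously (alternative pathway). All 3 routes cleave C3 and end in a pore made of C5b to C9. Clotting is a second protease cascade, in which prothrombin, factors VII, IX and X and proteins C, S and Z need a vitamin K-dependent modification, and the contact system joins clotting to the release of bradykinin. RNA measures none of the glycosylation, secretion or activity of these proteins.

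Library totals lay between 15430519 and 18412201 counts in WT livers and between 14688404 and 18585412 in N-LKO livers. Values per mouse are CPM, counts scaled to a common library size, after TMM scaling. Nus1 was between 82.0 and 90.5 CPM in WT and between 33.3 and 38.8 CPM in N-LKO livers, in the direction of the labels. WT mouse 1 stood apart from the other WT mice. The summed level of 22 acute-phase genes was 33277 CPM in this mouse and from 15922 to 16835 CPM in the other WT mice, against 15476 to 24846 CPM in N-LKO mice. Fga, the fibrinogen alpha chain, was at 9176 CPM in WT mouse 1 and at 3751 to 4314 CPM in the other WT mice, and Saa1, serum amyloid A, at 82.2 CPM against 8.57 to 15.5 CPM. No acute-phase gene of the 22 was called between genotypes by edgeR, where 1.04% of all genes tested were called. Leaving out WT mouse 1 moved the log2 fold change by more than 0.1 for 14 of the 49 genes, and for these both values are given.

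The promoters of 3 genes are shown, that of Alb because it drives the Cre transgene and those of C9 and Klkb1 because these genes lie at the 2 ends of the range of fold changes. Each is the 250 bases before the RefSeq transcription start (GRCm38.p6), 5′ to 3′ on the strand of the gene. The regions are chr5:90460620-90460869 on the plus strand for Alb, chr15:6445096-6445345 on the plus strand for C9 and chr8:45294836-45295085 on the minus strand for Klkb1. Capitals mark matches on either strand to TTGCNNAA (the site of C/EBP factors), CCAAT or TATAAA. The matches marked did not overlap.
Alb: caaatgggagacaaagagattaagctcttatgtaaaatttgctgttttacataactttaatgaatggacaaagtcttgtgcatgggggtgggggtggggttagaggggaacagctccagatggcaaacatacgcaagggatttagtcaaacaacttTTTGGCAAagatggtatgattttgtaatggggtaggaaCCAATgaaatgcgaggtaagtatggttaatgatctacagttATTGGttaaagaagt
C9: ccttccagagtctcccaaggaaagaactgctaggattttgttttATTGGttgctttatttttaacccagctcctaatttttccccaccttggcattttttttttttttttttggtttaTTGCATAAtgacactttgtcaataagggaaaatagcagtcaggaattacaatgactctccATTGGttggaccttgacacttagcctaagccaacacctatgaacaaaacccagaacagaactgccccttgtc
Klkb1: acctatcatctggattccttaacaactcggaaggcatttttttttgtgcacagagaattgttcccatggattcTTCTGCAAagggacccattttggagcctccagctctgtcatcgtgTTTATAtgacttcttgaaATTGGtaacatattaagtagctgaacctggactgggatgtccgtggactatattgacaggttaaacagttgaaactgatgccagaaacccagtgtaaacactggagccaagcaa

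RefSeq promoters were found for 38 of the 51 genes, 40 promoters in all, each searched over 250 bases before and 50 after the start. TTGCNNAA was present in 15 of the 40 (37.5%), against 10.8% of all 32851 promoters of this length. CCAAT was present in 35.0% of the 40 and in 37.4% of all promoters, and TATAAA in 7.5% and 13.6%. The motifs were chosen with expression values known, and a match is a stretch of letters, not a site shown to be bound.

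Levels between genes can be compared only per exon length. In WT livers Alb was highest, at a mean of 25115 CPM per kb of exon, followed by Trf (transferrin) at 2082, Serpina1a (an alpha-1-antitrypsin) at 1592, Ttr (transthyretin) at 1477 and Serpina1b at 1350. C3 was the most abundant complement mRNA, at 1149 CPM per kb, and Plg (plasminogen), Hrg (histidine-rich glycoprotein) and Kng1 (kininogen) lay between 514 and 545. The means of Plg and Hrg, 545 and 540 CPM per kb, differed by less than their spread between mice. At the other end, C2 was at 9.71 CPM per kb. In all, the 51 genes took between 8.64% and 10.6% of the counts of a mouse, of which Alb took between 4.66% and 7.003%.

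**Figure D1:**
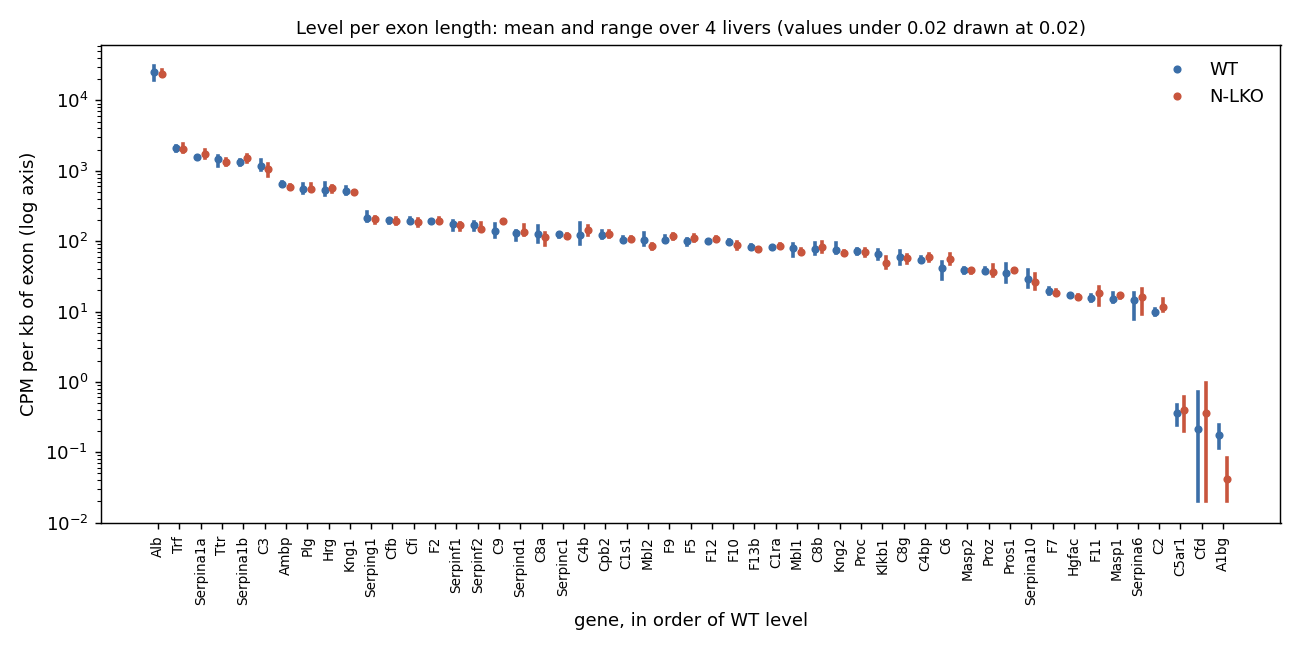
Level of each of the 51 genes in CPM per kb of exon (log axis), in order of the WT mean. Points are group means and bars the lowest to highest of 4 livers, with values under 0.02 drawn at 0.02. Alb (25115 in WT) stands above all other genes and C5ar1, Cfd and A1bg, all under 1, below all others, and the WT and N-LKO bars overlap for all genes but C9 and A1bg.

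C5ar1, Cfd and A1bg were near the limit of detection, so the name hepatocyte-secreted was not borne out for them by these livers. C5ar1, the C5a receptor of myeloid cells and not a secreted protein, was at 0.362 CPM per kb in WT livers. Cfd, the adipocyte protease adipsin that cleaves factor B, had between 0 and 13 counts per mouse. Of 7 adipocyte markers 3 were in the table, of which Cidea and Adrb3 were under 2 CPM in every mouse and Pck1 is also a gene of hepatocytes. A1bg, alpha-1-B glycoprotein, had 11, 7, 6 and 5 counts in WT mice 1 to 4 and 0, 2, 3 and 1 in N-LKO mice 1 to 4. The A1bg counts of the genotypes did not overlap, but all were too low for the filter. Fitted without a filter, A1bg had an edgeR adjusted p of 0.228, and its exons overlap those of 4930402D18Rik on the other strand. The hepatocyte markers were high and not called (0 of 10), with a summed level of 26234 to 37471 CPM in WT and 26598 to 37580 CPM in N-LKO livers. Of these markers 1, Apoa2, had an unadjusted p under 0.05 (log2 fold change -0.36, edgeR adjusted p = 0.162). Its groups did not overlap, at 1834 to 2240 CPM in WT and 1511 to 1832 CPM in N-LKO livers.

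Of the 49 genes tested, edgeR's quasi-likelihood test called 0 at an adjusted p (Benjamini-Hochberg over 14214 genes) under 0.05, where 1.04% of all genes tested were called (0.823% higher and 0.218% lower in N-LKO livers). At an unadjusted p under 0.05 there were 5 of 49 genes (10.2%), against 12.8% of all genes (6.87% higher and 5.9% lower). These were C9, C6 and C2, higher in N-LKO livers, and Klkb1 and Mbl2, lower. DESeq2 called 2 of the 49 genes, C9 (adjusted p = 0.0133) and Klkb1 (adjusted p = 0.0459), against 2.61% of all genes, and limma-voom called 0, against 0.886%. The 4 and 4 values did not overlap for 1 of the 49 genes, C9 (2.04%), against 7.52% of all genes.

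The 49 log2 fold changes (N-LKO minus WT) had a median of -0.010, beside -0.0033 for all genes tested, and ran from -0.44 (Klkb1) to 0.46 (C9), with 22 above and 27 below 0. These were also among the better measured genes. The median of their mean levels was 301.8 CPM, against 10.4 CPM for all genes tested, and the median standard error of the log2 fold change was 0.112, against 0.141. For 43 of the 49 genes (87.8%) the whole 95% interval lay within a 1.5-fold change in either direction, against 62.1% of all genes tested, and for all 49 it lay within a 2-fold change. Thus the data bound the change of most of these mRNAs, while smaller changes than the interval cannot be told from none.

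**Figure D2:**
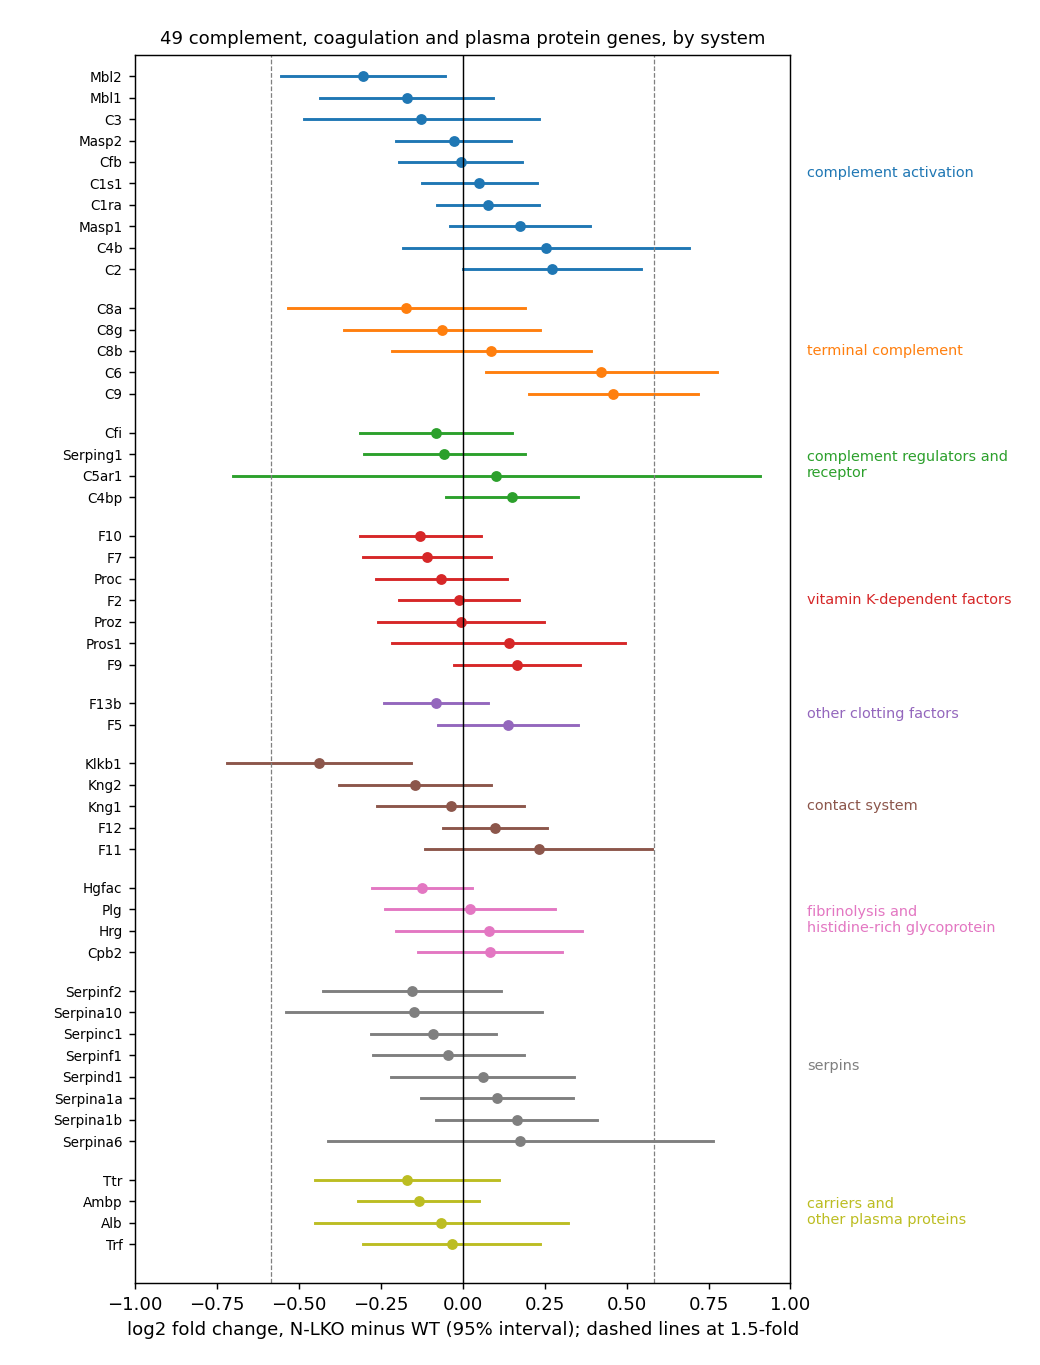
Log2 fold change, N-LKO minus WT, of the 49 genes tested, by system. Points are edgeR estimates (n = 4 and 4), bars 95% intervals and dashed lines a 1.5-fold change. The intervals of 43 genes lie between the dashed lines, and those of C9, C6, C2, Klkb1 and Mbl2 do not reach 0.

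Among the genes that start complement, 10 of 11 were tested and 5 were above and 5 below 0 (median 0.022, from -0.30 to 0.27). The classical proteases C1ra and C1s1 had log2 fold changes of 0.078 and 0.051, and Cfb, the protease of the alternative pathway, -0.0059. Within the lectin pathway, Masp1 and Masp2, the proteases carried by the lectins, were at 0.17 (0.28 without WT mouse 1) and -0.028, and Mbl1 at -0.17. None of these 6 was called.

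Mbl2 encodes mannose-binding lectin C, a plasma lectin that binds sugars on microbes. Its mRNA was at 97.0, 104, 141 and 113 CPM in WT mice 1 to 4 and at 88.3, 85.3, 97.2 and 98.4 CPM in N-LKO mice 1 to 4. WT mouse 3 was highest, and WT mouse 1 lay among the N-LKO mice, so that the groups overlapped. The log2 fold change of -0.30 (95% interval -0.55 to -0.053) had an adjusted p of 0.284 from edgeR's quasi-likelihood test, and was -0.18 without WT mouse 3.

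C2 supplies the protease of the classical and lectin C3 convertase. It was at 38.7, 34.8, 35.4 and 41.4 CPM in WT mice 1 to 4 and at 40.2, 38.9, 57.6 and 45.02 CPM in N-LKO mice 1 to 4. N-LKO mouse 3 was highest, and the other N-LKO mice were close to WT values. Its log2 fold change of 0.27 (edgeR adjusted p = 0.389) was 0.14 without N-LKO mouse 3. The exons of C2 overlap those of Gm20547 on the same strand and Zbtb12 on the other, and the strand setting of the counting is not given in the sources used here.

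C4b, the partner of C2 in the convertase, showed the weight of a single mouse. It was at 1030, 525, 589 and 620 CPM in WT mice 1 to 4 and at 750, 929, 696 and 920 CPM in N-LKO mice 1 to 4. WT mouse 1 was the highest of the 8, while every N-LKO mouse was above the other 3 WT mice. The log2 fold change was 0.25 with all mice (edgeR adjusted p = 0.647) and 0.51 without WT mouse 1, and neither value was called. C4a, a near copy whose reads can be split with C4b, was at 7.21, 5.25, 5.20 and 5.08 CPM in WT mice 1 to 4 and at 7.26, 8.18, 6.44 and 9.44 CPM in N-LKO mice 1 to 4 (log2 fold change 0.46, edgeR adjusted p = 0.252).

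C3, the protein on which all routes converge, was at 7269, 5246, 5204 and 5919 CPM in WT mice 1 to 4 and at 4387, 6110, 4718 and 6440 CPM in N-LKO mice 1 to 4. Here too WT mouse 1 was the highest of the 8, and the N-LKO mice lay on both sides of the other 3 WT mice. The log2 fold change was -0.13 with all mice and -0.012 without WT mouse 1.

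The 5 terminal components on the list had a median log2 fold change of 0.087. Of these, 2 had an unadjusted p under 0.05, against 12.8% of all genes tested, and both were higher in N-LKO livers. Hc, the gene of C5 and outside the list of 51, was at a log2 fold change of 0.025 (edgeR adjusted p = 0.976). It was at 0.23 without WT mouse 1. C9 (chr15:6445327-6498751, plus strand, GRCm38) was at 443, 293, 373 and 335 CPM in WT mice 1 to 4 and at 516, 479, 477 and 513 CPM in N-LKO mice 1 to 4. Every N-LKO mouse was above every WT mouse, WT mouse 1 being the nearest, and the N-LKO values lay close together (mean 496 ± 21.6, SD, n = 4, against 361 ± 63.5 in WT). This was a log2 fold change of 0.46 (standard error 0.117, 95% interval 0.20 to 0.72), with an edgeR adjusted p of 0.114 and an exact two-sided permutation p of 0.0286, the smallest that 4 against 4 mice can give. Without WT mouse 1, C9 was called (log2 fold change 0.57, edgeR adjusted p = 0.0319), and in the 8 fits that omit 1 mouse the value stayed between 0.37 and 0.57.

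C6 binds C5b early in the assembly of the pore. Its mRNA was at 147, 103, 181 and 157 CPM in WT mice 1 to 4 and at 167.7, 178, 230 and 212 CPM in N-LKO mice 1 to 4. WT mouse 3 lay above N-LKO mice 1 and 2, so the groups overlapped, and WT mouse 2 was lowest. The log2 fold change was 0.42 (95% interval 0.070 to 0.77), with an adjusted p of 0.291 from edgeR. The 3 chains of C8, which join the pore between C6 and C9, were at log2 fold changes of -0.17 (C8a), 0.087 (C8b) and -0.063 (C8g), none of them called. Without WT mouse 1, C8a was at -0.025 and C8b at 0.20. Whether C9 and C6 differ from the C8 chains in their response was not tested.

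**Figure D3:**
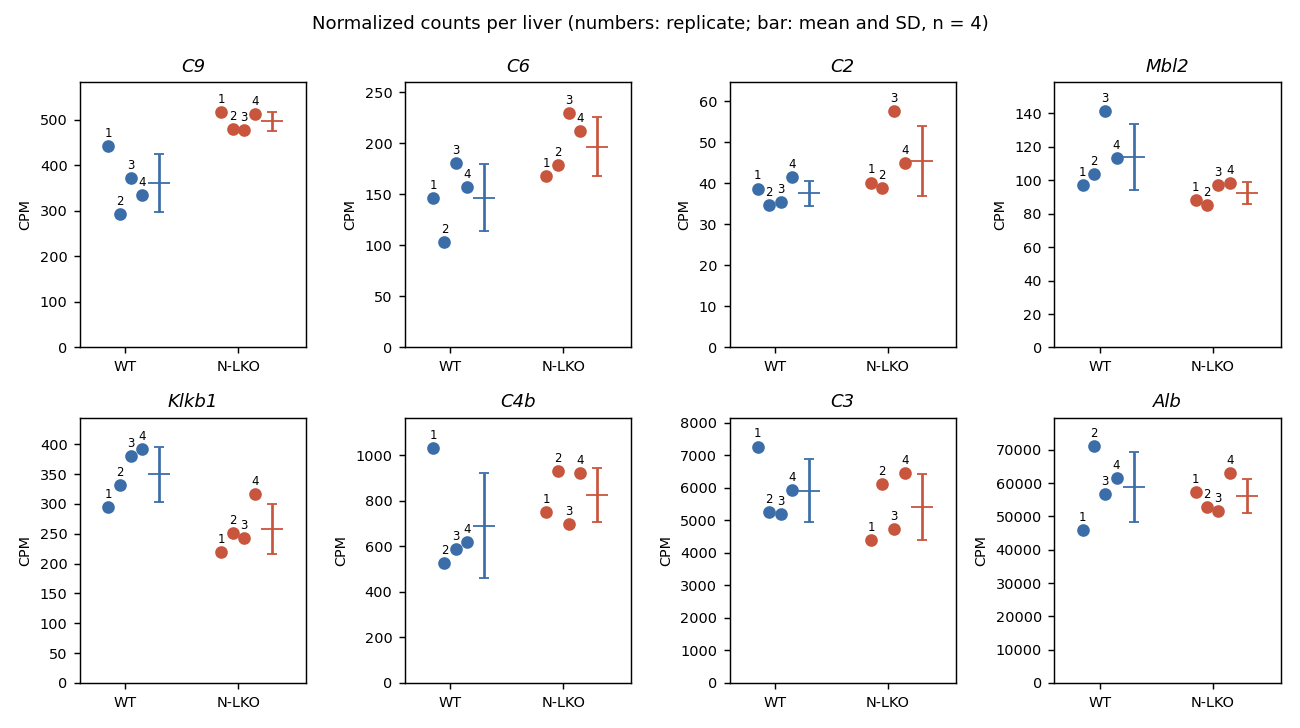
CPM per liver of 8 genes, each on its own axis from 0. Points are livers, numbered by replicate, and bars are means with SD (n = 4). C9 is the only one of the 8 whose groups do not overlap (293 to 443 in WT, 477 to 516 in N-LKO), and WT mouse 1 is the highest WT mouse for C9, C4b and C3 and the lowest for Mbl2, Klkb1 and Alb.

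Of the regulators, Cfi (the protease that inactivates C3b) and Serping1 (C1 inhibitor) had log2 fold changes of -0.082 and -0.056, the latter 0.059 without WT mouse 1. C4bp, a cofactor of factor I, was at 401, 348, 367 and 349 CPM in WT mice 1 to 4 and at 398, 354, 423 and 449 CPM in N-LKO mice 1 to 4. The groups overlapped and the log2 fold change of 0.15 (edgeR adjusted p = 0.546) was not called. For C5ar1, with 9 to 24 counts per mouse, the interval from -0.70 to 0.91 spanned changes of more than 1.5-fold in both directions.

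The 7 vitamin K-dependent genes differed little between genotypes. Their summed level was 1971 to 2043 CPM in WT and 1880 to 2218 CPM in N-LKO livers, their log2 fold changes ran from -0.13 to 0.17, and the 95% interval lay within 1.5-fold for 7 of 7. F2 (prothrombin) was at -0.010, F7 at -0.11, F10 at -0.13, Proc at -0.065, Pros1 at 0.14 (0.32 without WT mouse 1) and Proz at -0.0050. F9, the gene of factor IX, was at 324, 272, 272 and 270 CPM in WT mice 1 to 4 and at 311, 321, 297 and 347 CPM in N-LKO mice 1 to 4. WT mouse 1 was within the N-LKO range and the other 3 WT mice were below it. The log2 fold change of F9 was 0.17 with all mice (edgeR adjusted p = 0.472) and 0.24 without WT mouse 1, where it was still not called.

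The 8 genes listed around the vitamin K cycle and the vitamin K-dependent modification were not called either. The list is a broad one that also holds Cyp4f14, Furin, Pcsk5 and Pcsk6. Ggcx, the carboxylase itself, was at a log2 fold change of -0.072. Of the 8 genes, 1 (12.5%) had an unadjusted p under 0.05, against 12.8% of all genes tested. This was Vkorc1, the reductase that recycles vitamin K, at 74.4, 76.9, 85.7 and 82.3 CPM in WT mice 1 to 4 and at 74.7, 63.1, 67.5 and 67.8 CPM in N-LKO mice 1 to 4. N-LKO mouse 1 lay just above WT mouse 1, and the others were below all WT mice (log2 fold change -0.22, edgeR adjusted p = 0.235). The largest positive value of the list was that of Nqo1, a quinone reductase, at 0.13 (edgeR adjusted p = 0.822).

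F5 encodes factor V, the cofactor of factor Xa. It was at 782, 802, 650 and 797 CPM in WT mice 1 to 4 and at 752, 843, 845 and 898 CPM in N-LKO mice 1 to 4. WT mouse 3 was lowest and the groups overlapped (log2 fold change 0.14, edgeR adjusted p = 0.603). F13b, the B subunit of the clot-crosslinking factor XIII, was at a log2 fold change of -0.082 with a 95% interval of -0.24 to 0.078.

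In the contact system, Klkb1 (chr8:45266689-45294859, minus strand) encodes prekallikrein, whose active form releases bradykinin from kininogen. Its mRNA was at 294, 331, 381 and 393 CPM in WT mice 1 to 4 and at 220, 252, 243 and 317 CPM in N-LKO mice 1 to 4. N-LKO mouse 4 lay above WT mouse 1, and the other 3 N-LKO mice were below all WT mice. This was a log2 fold change of -0.44 (standard error 0.127, 95% interval -0.72 to -0.16, edgeR adjusted p = 0.163, exact permutation p = 0.0571), and the value stayed between -0.55 and -0.37 with each mouse left out. Klkb1 shares exon bases with Gm45753 on the same strand.

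The other genes of the contact system had smaller values. Kng1 and Kng2, near copies that encode kininogens, the substrate of kallikrein, were at log2 fold changes of -0.037 and -0.15, F12, the protease that activates prekallikrein, at 0.098, and F11, the relative of prekallikrein that activates factor IX, at 0.23. Kng2 was at -0.028 without WT mouse 1. The 95% intervals of F11 (-0.11 to 0.58) and Klkb1 did not overlap, but the difference between these related proteases was not tested.

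The genes of fibrinolysis and histidine-rich glycoprotein were close to 0. Plg was at a log2 fold change of 0.022, Cpb2, a carboxypeptidase that slows clot lysis, at 0.083 and Hrg at 0.079 (0.20 without WT mouse 1). Hgfac, the protease that activates hepatocyte growth factor, was at 57.6, 61.3, 57.6 and 61.04 CPM in WT mice 1 to 4 and at 53.8, 50.6, 54.7 and 58.7 CPM in N-LKO mice 1 to 4. N-LKO mouse 4 alone reached the WT range (log2 fold change -0.13, edgeR adjusted p = 0.496).

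The 8 serpins had a median log2 fold change of 0.0082, with 4 above and 4 below 0. Serpinc1 (antithrombin) was at -0.090, Serpind1 (heparin cofactor II) at 0.060, Serpinf1 (pigment epithelium-derived factor) at -0.044, Serpinf2 (alpha-2-antiplasmin) at -0.16 and Serpina10 (the inhibitor that works with protein Z) at -0.15, which was 0.011 without WT mouse 1. Serpina6, the corticosteroid-binding globulin, was the most variable of the serpins, at 14.0, 27.7, 31.8 and 27.8 CPM in WT mice 1 to 4 and at 36.4, 16.4, 32.2 and 29.1 CPM in N-LKO mice 1 to 4. WT mouse 1 and N-LKO mouse 2 were low, and the log2 fold change was 0.18 with all mice and -0.027 without WT mouse 1.

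Serpina1a and Serpina1b are copies of the alpha-1-antitrypsin gene, and reads they share could be divided among the 5 copies in the table. Serpina1a was at 2746, 2944, 3009 and 2968 CPM in WT mice 1 to 4 and at 3109, 2780, 3045 and 3609 CPM in N-LKO mice 1 to 4, with overlap and a log2 fold change of 0.10 (edgeR adjusted p = 0.744). Serpina1b was at a log2 fold change of 0.16. Serpina1e, a copy outside the list of 51, was at 4155, 3020, 3357 and 3474 CPM in WT mice 1 to 4 and at 5848, 4091, 5980 and 6984 CPM in N-LKO mice 1 to 4. N-LKO mouse 2 was just below WT mouse 1, and the other 3 N-LKO mice were above all WT mice. Its log2 fold change of 0.71 had an adjusted p of 0.0847 by edgeR, 0.0827 by limma-voom and 0.0011 by DESeq2. The edgeR adjusted p was 0.0195 without N-LKO mouse 2, and ran from 0.067 to 0.214 with any other single mouse left out. Summed over the 5 copies, the level was 14433 to 15324 CPM in WT and 14786 to 20640 CPM in N-LKO livers.

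The 4 carriers tested, Alb, Trf, Ttr and Ambp, were all below 0 (median -0.10), none of them called. Alb was at 45845, 71152, 56634 and 61649 CPM in WT mice 1 to 4 and at 57220, 52824, 51581 and 63112 CPM in N-LKO mice 1 to 4. All N-LKO values lay inside the WT range, whose ends were WT mice 1 and 2, and the log2 fold change of -0.07 (95% interval -0.45 to 0.32) was -0.17 without WT mouse 1 and turned to 0.038 without WT mouse 2. Trf was at 6318, 6657, 7473 and 7197 CPM in WT mice 1 to 4 and at 6082, 6412, 6547 and 7956 CPM in N-LKO mice 1 to 4 (log2 fold change -0.034). Both the lowest and the highest value were from N-LKO mice, and the sign of the fold change of Trf turned without WT mouse 3 (0.0047) or N-LKO mouse 1 (0.012).

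Ttr, the carrier of thyroxine and of retinol-binding protein, was at 1363, 1833, 1931 and 1882 CPM in WT mice 1 to 4 and at 1589, 1423, 1452 and 1768 CPM in N-LKO mice 1 to 4. WT mouse 1 was the lowest of the 8 and the other 3 WT mice were above all N-LKO mice. Its log2 fold change was -0.17 with all mice (edgeR adjusted p = 0.636) and -0.27 in the fit without WT mouse 1, not called in either. Ambp, the precursor of alpha-1-microglobulin and bikunin, was at -0.13.

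Differences between mice of the same genotype had a pattern over the genes. WT mouse 1 was the highest WT mouse for 21 of the 49 genes and the lowest for 17. Over all genes tested it was the highest for 26.5% and the lowest for 26.4%. The genes highest in WT mouse 1 included C3, C4b, C8a, Serping1, Plg, Hrg and Kng1, and those lowest included Alb, Ttr, Trf, Serpina6, Serpinc1 and Proc. It differed by more than 1.3-fold from the mean of the other WT mice for 16 of the 49 genes, 10 higher and 6 lower. Whether the acute-phase values of this mouse have a part in that was not tested.

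Among N-LKO mice, mouse 4 was the highest for 33 of the 49 genes (67.3%), while over all genes tested it was the highest for 24.0%. It was the lowest for 1 of the 49. The summed level of all 51 genes was 105395 CPM in N-LKO mouse 4, against 87498 to 92661 CPM in the other N-LKO mice and 85031 to 107329 CPM in WT mice. The median SD of log2 CPM between mice was 0.167 in WT and 0.140 in N-LKO for these genes, and 0.181 and 0.188 for all genes tested.

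Without WT mouse 1, 9 of the 49 genes (18.4%) had an unadjusted p under 0.05 in the edgeR fit (C4b, C6, C9, F9, Klkb1, Masp1, Mbl2, Pros1 and Ttr), against 13.4% of all genes in that fit. C9 alone of the 49 was called there, where 0.937% of all genes were called. Without WT mouse 3 or without N-LKO mouse 3 there were 3 of the 49 (6.12%), against 12.1% and 10.1% of all genes. C9 and Klkb1 had an unadjusted p under 0.05 in every fit of the 49 genes that was run.

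**Figure D4:**
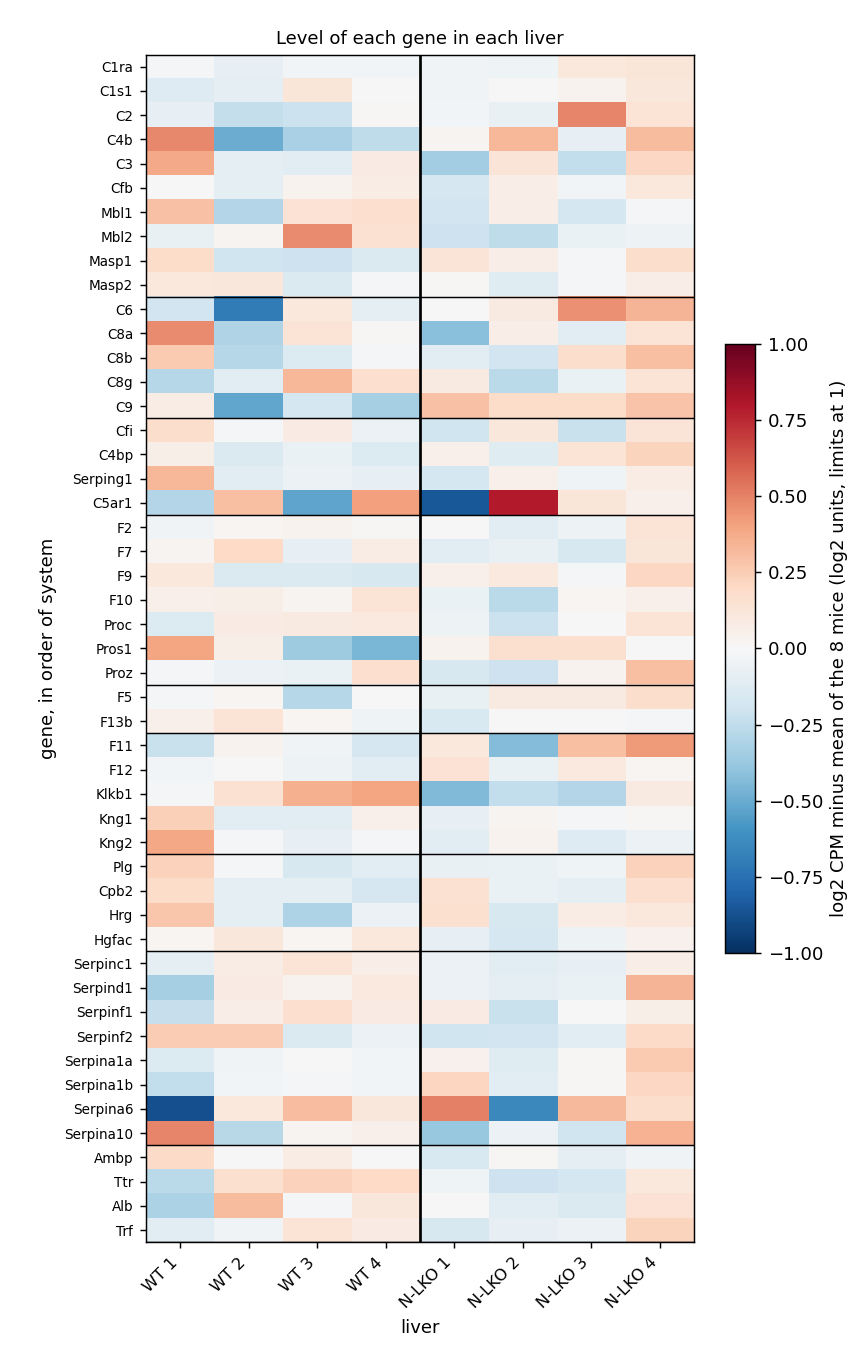
Level of the 49 genes tested in each of the 8 livers, as log2 CPM minus the mean of the 8 mice (colour scale from -1 to 1), with lines between systems and between genotypes. WT mouse 1 is the highest of the WT mice for 21 genes and the lowest for 17, and N-LKO mouse 4 is the highest of the N-LKO mice for 33.

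Another 86 genes of the same pathways were listed, of which 83 were in the table and 77 were tested. The edgeR test called 2 of the 77, where 1.04% of all genes tested were called. At an unadjusted p under 0.05 there were 11 (14.3%), against 12.8% of all genes. The median log2 fold change of the 77 was -0.039. The called genes were Colec10, which fell, and Plat, which rose. Plat passed the filter on low counts only through the N-LKO livers, so the count of 2 rests in part on that filter.

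Colec10 (chr15:54410774-54466358, plus strand) encodes collectin liver 1, a sugar-binding lectin of the lectin pathway. It was at 31.6, 24.1, 31.4 and 30.6 CPM in WT mice 1 to 4 and at 11.4, 14.6, 11.3 and 10.1 CPM in N-LKO mice 1 to 4. Each N-LKO mouse was below each WT mouse, and the mean of the N-LKO mice was 40.3% of that in WT. The change of -1.31 on the log2 scale had a standard error of 0.129 (edgeR adjusted p = 0.000876) and stayed between -1.42 and -1.24 with each mouse left out. Colec11, its partner in plasma, was at a log2 fold change of -0.26 (edgeR adjusted p = 0.451), and the log2 fold change of Fcna, a ficolin of the same pathway, was -0.27 (edgeR adjusted p = 0.494). Of these 5 lectins Colec10 was called, and Mbl1, Mbl2, Colec11 and Fcna were not. The 95% intervals of Mbl1, Colec11 and Fcna crossed 0, and Colec11 and Fcna were chosen after their values were seen.

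Plat (chr8:22757727-22782844, plus strand) encodes tissue-type plasminogen activator. It had 6, 12, 7 and 11 counts in WT mice 1 to 4 and 34, 30, 45 and 30 counts in N-LKO mice 1 to 4. Plat passed the filter on low counts only through the N-LKO livers, where it was high, and it was not tested with at least 10 counts required in every mouse. The groups did not overlap, at levels of 0.321 to 0.750 CPM in WT and 1.93 to 2.99 CPM in N-LKO livers, and the log2 fold change was 2.07 with a standard error of 0.299 (edgeR adjusted p = 0.0090) and 1.88 to 2.27 with each mouse left out. Its substrate Plg did not differ by more than its error, and Serpine2, a serpin that can inhibit Plat, was at a log2 fold change of -0.36 (edgeR adjusted p = 0.639).

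Markers of some other liver cells moved with genotype beside these genes. For the counts below, edgeR called 1.04% of all genes tested, and 12.8% had an unadjusted p under 0.05. Of 8 fibroblast markers tested, edgeR called 4, all higher in N-LKO livers (Col1a1, Lum, Mgp and Pdgfra), and the summed level of the list was 152.5 to 209.0 CPM in WT and 237.1 to 336.5 CPM in N-LKO livers, with no marker at 0 in a group. For cholangiocytes 2 of 4 were called, both higher (Epcam and Spp1), with a summed level of 23.1 to 44.8 CPM against 52.1 to 131.7 CPM, and Cldn4 was listed at 0 in at least 1 WT mouse. Of 4 mesothelial markers 1 was called, higher (Wt1), with a summed level of 4.33 to 5.52 CPM in WT and 6.24 to 6.99 CPM in N-LKO livers. Mgp and Wt1, like Plat, passed the filter on low counts only through the N-LKO livers. Of 7 stellate cell markers, 8 Kupffer cell markers, 6 sinusoidal endothelial markers and 3 neutrophil and monocyte markers, edgeR called 0, and 2, 1, 0 and 0 had an unadjusted p under 0.05. The part of these cells in the values of Plat, Colec10 and the 51 genes was not tested.

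The other genes of these pathways with an unadjusted p under 0.05 were not called. Lower in N-LKO livers were C1rl, a relative of C1r, at a log2 fold change of -0.29, Cd59a, which blocks the pore on the cell's own membrane, at -0.29, Cpn1, the carboxypeptidase that inactivates C3a and C5a, at -0.27, F8 (factor VIII) at -0.33 and Itih2, a heavy chain carried by bikunin, at -0.34. Higher were Cfhr2, a relative of factor H, at 0.25, Mug1, a protease inhibitor of the alpha-2-macroglobulin family, at 0.33, and C4a and Serpina1e, given above. Their edgeR adjusted p ran from 0.0847 for Serpina1e to 0.378 for Mug1, and DESeq2 called Cfhr2 (0.0256), Itih2 (0.0191) and Serpina1e. Against 7.52% of all genes tested, the groups did not overlap for 8 of the 77 genes (10.4%). Beside Colec10 and Plat these were C1rl (132.8 to 143.7 CPM in WT, 95.7 to 126.6 CPM in N-LKO livers), Cd59a (65.9 to 79.4 against 55.3 to 64.1 CPM), Cfhr2 (468 to 520 against 557 to 630 CPM) and Itih2 (1272 to 1525 against 987 to 1232 CPM), and Cfhr3 and Lman1, with unadjusted p above 0.05. The 3 fibrinogen chains Fga, Fgb and Fgg were at -0.17, -0.23 and -0.25 with all mice, WT mouse 1 being the highest of the 8 for each, and at 0.24, 0.21 and 0.15 without that mouse, not called in either fit.

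Of 22 transcription factors of hepatocytes, edgeR called 0, where 1.04% of all genes tested were called. At an unadjusted p under 0.05 there was 1 (4.5%), against 12.8% of all genes tested. This was Dbp, a clock-controlled factor, at 2.40, 7.88, 5.90 and 2.98 CPM in WT mice 1 to 4 and at 3.00, 2.77, 2.52 and 1.02 CPM in N-LKO mice 1 to 4. The groups overlapped (log2 fold change -1.02, edgeR adjusted p = 0.322). Cebpa, a C/EBP factor, was at a log2 fold change of 0.064 (-0.078 without WT mouse 1) and Hnf4a, a nuclear receptor of hepatocytes, at 0.057, neither of them called.

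**Figure D5:**
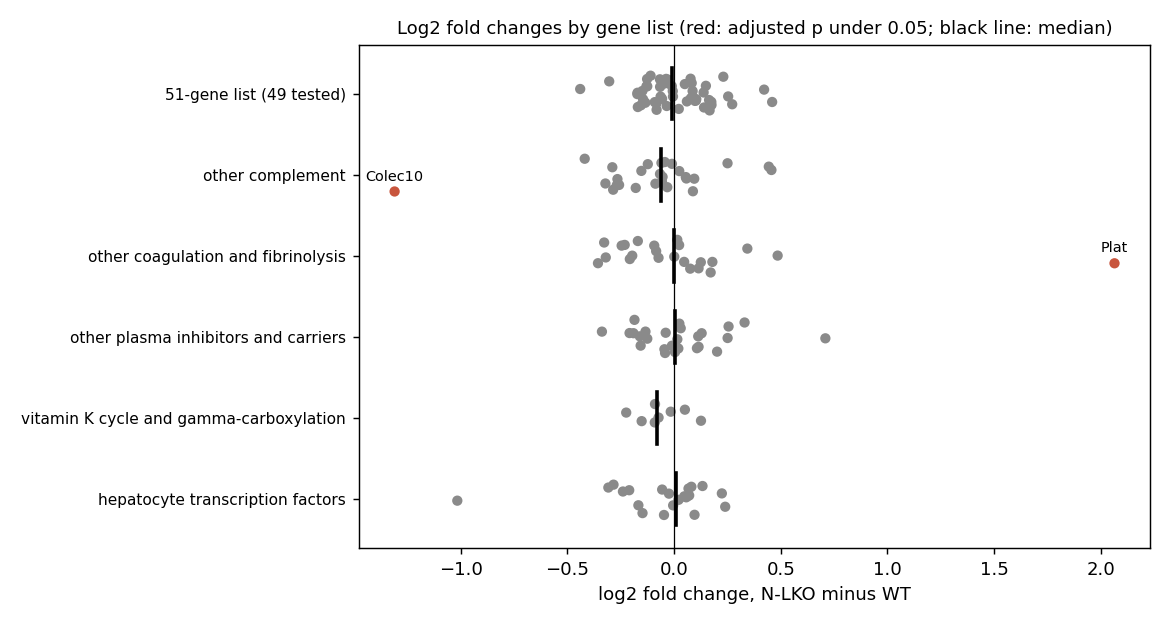
Log2 fold changes, N-LKO minus WT, of the 49 genes tested and of the other genes of the pathways, 1 point per gene, with the median of each list as a black line and genes with an edgeR adjusted p under 0.05 in red. Only Colec10 (-1.31) and Plat (2.07) are red, and the 49 genes lie between -0.44 and 0.46.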

How the data were processed

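The authors removed rRNA from total liver RNA, made libraries with a small RNA library kit (per the labels) and sequenced them. Their methods name in-house trimming, TopHat2 and cuffdiff, and the submitters' processing notes name STAR, Partek and mm9. Which program made the counts, and its strand setting, is not given in the sources used here. Gene coordinates were those of GRCm38, since 96.8% of table entries and all 51 genes matched GENCODE M21. The authors deposited expected counts, estimated reads per gene not scaled to depth, and 52.3% of genes had decimals. Counts were rounded.

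Genes were kept by edgeR 4.0.16 filterByExpr (minimum count 10, minimum total 15), leaving 14214, scaled by TMM, and tested in R 4.3.3 by the quasi-likelihood test of genotype, without covariates. Called means a Benjamini-Hochberg adjusted p under 0.05. Intervals are 95%. For single genes a two-sided exact permutation test of the 8 mice stands beside the fit. In simulated counts for 14214 genes, edgeR recovered 99% of 200 changed genes with 6 false calls. Recovery of differences as small as those of the listed genes was not tested. DESeq2 1.42.0, limma-voom 3.58.1, other scalings, filters and blocks, and each mouse left out were alternatives. P-values of the fits set the difference between genotypes against the spread between the 4 mice of a group, which is estimated with help from all genes tested.

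The 51 genes, the other lists and the tests were chosen with earlier results of these data known. Of the 51 genes, values in every mouse are given for those with an unadjusted p under 0.05, for the largest fold change of each system among genes of at least 1 CPM, for the 3 highest levels per length and for those without overlap. Other pathway genes are named where called, at an unadjusted p under 0.05 or at the ends of a list. C3, C4b, C4a, Hc, Colec11, Fcna, Cfhr3, Lman1, the fibrinogen chains, Ggcx, Cebpa, Hnf4a and the promoter motifs were chosen after their values were seen. Depth of 14688404 to 18585412 counts limits genes near 3 counts. Some results for single genes are not reported here.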

Additional observations from a re-analysis of the deposited data

Results flagged for a closer look

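Over the groups of 4 mice of the 49 genes tested, the other genes named and Nus1, 18 groups held a mouse farther from the rest of its group than Dixon's 95% critical value allows. Chance gives this in about 1 in 20 groups, that is 6.5 of the groups examined, and 11 of the 18 were in WT mouse 1. All values here are log2 CPM.

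WT mouse 1 stood above the other WT mice for Masp1 (7.47), Serping1 (9.24), F9 (8.34), Kng2 (8.0) and C4a (2.87). It stood below them for Proc (7.33), Serpind1 (7.84), Serpina1b (11.5), Serpina6 (3.82), Ttr (10.4) and Nus1 (6.36).

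N-LKO mouse 4 was high for Plg (11.2) and Serpind1 (8.52) and low for Dbp (0.19). F5 was low in WT mouse 3 (9.34), F13b low in N-LKO mouse 1 (7.51) and Plat high in N-LKO mouse 3 (1.64). Colec10 was low in WT mouse 2 (4.6).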

How the results depend on the processing

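All genes called numbered 148 with edgeR, 98 with at least 10 counts in every mouse, 371 with DESeq2, and from 71 to 173 with each mouse left out. Of the 51 genes, 0 were called with edgeR, 2 with DESeq2 and from 0 to 1 with each mouse left out, the 1 being C9 without WT mouse 1. Of the other pathway genes, 2 were called with edgeR, 1 with at least 10 counts in every mouse, 5 with DESeq2 and from 2 to 3 with each mouse left out. The vitamin K and transcription factor genes gave 0 in every setting run. Plat, with 6 to 12 counts in WT mice, is not tested with at least 10 counts in every mouse, which takes the 2 to 1. For the other counts the cause of a difference was not tested. Of the log2 fold changes of 72 genes in 17 alternatives, 1176 values kept their direction and side of the threshold, 7 passed it and 39 turned, all 39 of them not called. The sign turned without WT mouse 1 for Masp2, Serping1, Kng1, Serpind1, Serpina6, Serpina10, Fga, Fgb, Fgg and Cebpa, without WT mouse 2 for Masp2 and Alb, without WT mouse 3 for Cfb, C5ar1, C8g, Plg, Hrg, Serpinf1 and Trf, and without WT mouse 4 for Cfb, Proz and Plg. It turned without N-LKO mouse 1 for Cfb, Proz and Trf, without N-LKO mouse 2 for C5ar1, C8g, F2, Masp2, Proz and Serpinf1, without N-LKO mouse 3 for Cfb, F2 and Cebpa, and without N-LKO mouse 4 for C8b, Plg, Serpind1 and Hnf4a. With each mouse left out, the values ran from -0.0441 to 0.0445 for Cfb, -0.0778 to 0.0102 for Masp2, -0.00403 to 0.197 for C8b, -0.159 to 0.0446 for C8g, -0.1 to 0.0592 for Serping1, -0.198 to 0.335 for C5ar1, -0.0614 to 0.0267 for F2, -0.119 to 0.0636 for Proz, -0.081 to 0.0423 for Kng1, -0.0556 to 0.111 for Plg and -0.00336 to 0.199 for Hrg. They ran from -0.0554 to 0.107 for Serpind1, -0.12 to 0.0228 for Serpinf1, -0.0269 to 0.37 for Serpina6, -0.307 to 0.0108 for Serpina10, -0.169 to 0.038 for Alb, -0.123 to 0.0121 for Trf, -0.454 to 0.237 for Fga, -0.447 to 0.208 for Fgb, -0.472 to 0.151 for Fgg, -0.0465 to 0.111 for Hnf4a and -0.124 to 0.205 for Cebpa. Plg also turned with library totals in place of TMM (-0.0128). Of the 49 genes tested, 48 kept their sign in all settings with 8 mice and 32 in every setting.

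The labels do not say that the replicate numbers of the titles pair the mice, and the main fit took them as unpaired. With group means removed, samples sharing a number correlated by -0.0853 to 0.0625 (library numbers, -0.0092 to 0.166). Samples with different numbers were not compared in this way, so these values cannot decide whether mice were paired. The replicate block gave 131 called genes, the library number as a block 113, and 0 of the 51 in both. Library totals in place of TMM moved the 49 log2 fold changes by a median of -0.034, and scaling without the 51 genes by at most 0.00042. Depth limits A1bg, Cfd and C5ar1.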
